A study of Sus scrofa with 3 samples.

Results

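Antigen presentation was examined through 8 listed genes in porcine spermatogonia: CD74, B2M, TAP1, TAP2, TAPBP, CIITA, NLRC5 and CTSS. They were found by gene name among 18730 genes of the deposited expression table, of which 17949 were above 0 in at least 1 library. The table itself names 5 of the 8. CD74 and TAP2 stand in rows that the table leaves unnamed, and were found through a reference list of Ensembl names. The last row is named ZBTB22 in the table and TAPBP in the reference list. These 2 genes are neighbours that overlap in the RefSeq annotation of Sscrofa11.1, so that row is given apart and 7 genes have an undisputed name. The genes were selected on a measured level, that of CD74, which stood above 1 FPKM among leukocyte markers, so the levels of the 8 genes are a description with no test.

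The samples were 3 libraries, S1, S2 and S3, of germ cells from pigs of 90 days, sorted as spermatogonia positive for SSEA4 (stage-specific embryonic antigen 4, a glycolipid of the cell surface). They form 1 group, and no other population was analysed here. The labels give no genotype, strain or treatment. Nothing in them tells whether separate animals were used, so every p-value refers to the spread among the 3 libraries alone, and that spread may be technical. Values are FPKM (fragment counts scaled by gene length and by the total mapped), and the read depth behind them is unknown. The 3 columns summed to 859642 FPKM in S1, 855276 FPKM in S2 and 781871 FPKM in S3, with 57.7%, 59.3% and 52.7% of the sum in 13 mitochondrially encoded genes. Of 11 measured germ cell markers 10 lay above 1 FPKM (limma), as did 65.6% of all genes, and the highest were STK31 at 145 ± 15.1 FPKM and DDX4 at 81.5 ± 3.18 (SD, n = 3). Of 10 measured markers of Sertoli cells, the somatic cells that surround germ cells in the tubule, 6 lay above 1 FPKM and 4 below (limma). Among all genes 65.6% lay above and 28.5% below. The 4 were AMH, FSHR, DHH and KRT18. The list had summed levels of 542, 422 and 254 FPKM in S1, S2 and S3, of which CLU alone had 325, 234 and 125 FPKM.

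Cells show peptides to T cells on 2 kinds of MHC molecule. Class I molecules, made of a heavy chain and beta-2-microglobulin (B2M), receive cytosolic peptides that the TAP1-TAP2 transporter moves into the endoplasmic reticulum, where tapasin (TAPBP) holds the empty molecule at the transporter. Class II molecules are assembled with the invariant chain, CD74, which blocks the groove until endosomal proteases such as cathepsin S (CTSS) remove it. Most nucleated cells make class I, whereas class II is made mainly by professional antigen-presenting cells. NLRC5 is the coactivator of class I genes and CIITA that of class II genes and CD74. In the seminiferous tubule, spermatogonia lie outside the barrier that Sertoli cells form.

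The class II side of the list held a high invariant chain and a low coactivator. CD74 had 19.6 FPKM in S1, 16.0 FPKM in S2 and 15.5 FPKM in S3, with a mean of 17.0 ± 2.25 FPKM (SD, n = 3). The libraries S2 and S3 lay close together and S1 above both. This level was higher than that of 76.4% of the 17949 genes. CIITA had 0.166 FPKM in S1, 0.183 FPKM in S2 and 0.152 FPKM in S3, a mean of 0.167 ± 0.0154 that was higher than that of 13.9% of genes. It was the lowest of the 8 genes in every library. The level of CD74 was 118 times that of CIITA in S1, 87.5 times in S2 and 102 times in S3. CTSS had 7.01 FPKM in S1, 7.33 FPKM in S2 and 11.3 FPKM in S3, with a mean of 8.56 ± 2.42. It was alike in S1 and S2 and highest in S3, where CD74 had 1.36 times its level, against 2.80 times in S1 and 2.18 times in S2.

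On the class I side B2M had a higher level than 80.7% of all genes, whereas TAP2, NLRC5 and TAP1 lay nearer the middle, above 54.1%, 41.1% and 40.1% of genes. B2M, the light chain, had 24.3 FPKM in S1, 25.0 FPKM in S2 and 16.8 FPKM in S3, with a mean of 22.0 ± 4.54 (SD, n = 3). It was the highest of the 8 genes in every library and was lowest in S3. The RefSeq annotation lists 2 genes named B2M, so reads of near-identical copies may have been divided between them and the value is uncertain. TAP1 had 2.24 FPKM in S1, 2.20 FPKM in S2 and 1.71 FPKM in S3, and TAP2 had 4.53, 4.00 and 6.31 FPKM in the same libraries. In S3 one transporter subunit, TAP1, was at its lowest and the other, TAP2, at its highest. TAP2 had 2.02 times the level of TAP1 in S1, 1.82 times in S2 and 3.69 times in S3. The genes lie close together in the RefSeq annotation of Sscrofa11.1, with PSMB8 between them. NLRC5 had 1.82 FPKM in S1, 2.01 FPKM in S2 and 2.81 FPKM in S3, a mean of 2.21 ± 0.521, and was highest in S3. The row named both ZBTB22 and TAPBP had 6.04, 4.73 and 6.46 FPKM. Since these genes overlap, tapasin, and ZBTB22, a zinc finger protein, cannot be told apart in it.

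**Figure D1:**
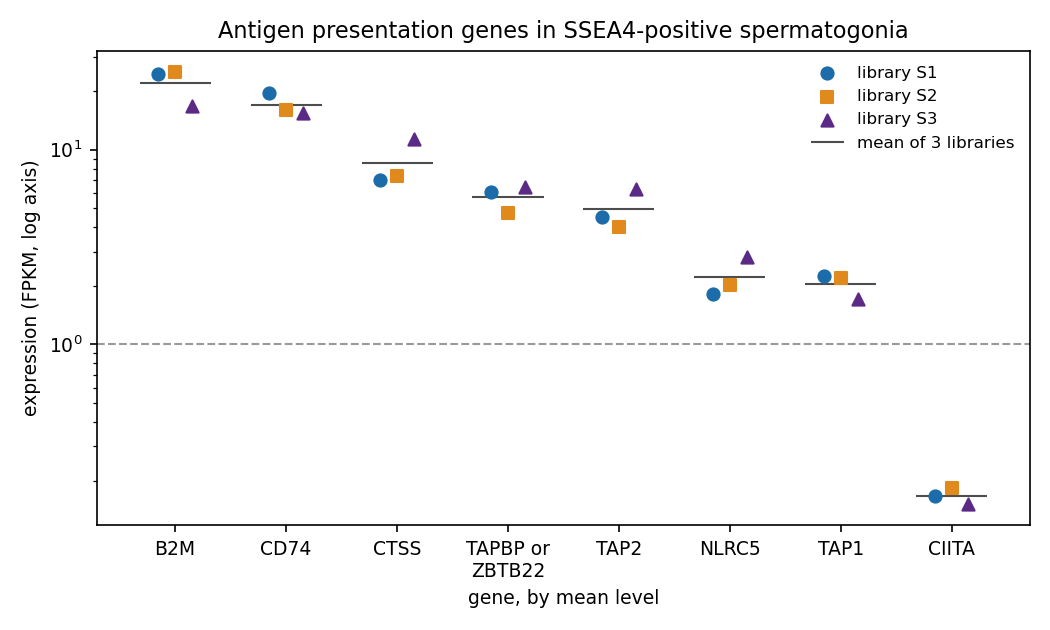
Levels of the 8 genes (FPKM, log axis), with a point for each of the 3 libraries, a bar for their mean and a dashed line at 1 FPKM. B2M and CD74 lie between 15.5 and 25.0 FPKM, and CIITA lies at or under 0.183 FPKM in all 3 libraries.

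By mean level the order was B2M, CD74, CTSS, the row of 2 names, TAP2, NLRC5, TAP1 and CIITA. B2M was above CD74 in 3 of 3 libraries, at 1.24, 1.56 and 1.09 times its level in S1, S2 and S3, but the ranges of the 2 genes over the libraries overlapped. The row of 2 names and TAP2 also overlapped, as did NLRC5 and TAP1, where NLRC5 was the higher in 1 of 3 libraries. The other neighbours in the order had ranges that did not overlap: CD74 over CTSS, CTSS over the row of 2 names, TAP2 over NLRC5, and TAP1 over CIITA. TAP1 had 13.5 times the level of CIITA in S1, 12.0 times in S2 and 11.3 times in S3. Of the 7 genes with an undisputed name 6 averaged 1 FPKM or more, as did 68.8% of all genes; this contrast helped to choose the genes and nothing is read from it.

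The genes whose levels lay nearest to those of CD74 in all 3 libraries were WWP2, a ubiquitin ligase, MCU, the mitochondrial calcium uniporter, and TNFAIP3, an inhibitor of NF-kappa-B signalling. Their largest difference from CD74 in any of the 3 libraries was 0.07 on the log2(FPKM + 1) scale for each of the 3. This likeness is one of level, and 3 libraries cannot show covariation.

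The measured genes of class II molecules had much lower levels than CD74. Of 15 listed class II chains and editors 4 were measured under the listed names. SLA-DQB1, a class II beta chain, had 1.49 FPKM in S1, 1.24 FPKM in S2 and 1.25 FPKM in S3 and lay above 1 FPKM (limma, log2 difference 0.22 ± 0.06 (SE), adjusted p = 0.0165, n = 3). SLA-DMA and SLA-DMB, which together exchange the invariant chain remnant for peptide, had means of 0.727 ± 0.172 and 0.791 ± 0.151 FPKM (SD, n = 3) and lay below the level (limma, adjusted p = 0.0207 and 0.0459). SLA-DOA, a chain of the inhibitor of that exchange, was at 0.186 ± 0.0286 FPKM and also lay below. The call for SLA-DQB1 was lost without library S1 or S2 (limma, adjusted p = 0.103 and 0.069), and so was that for SLA-DMA (limma, adjusted p = 0.114 and 0.135). The call for SLA-DMB was lost without any 1 of the libraries, with a pseudocount of 0.1 (limma, adjusted p = 0.0697), with genes averaging under 0.5 FPKM left out (limma, adjusted p = 0.0641) and after each library was rescaled to 1000000 (limma, adjusted p = 0.522). That for SLA-DMA was lost after the same rescaling (limma, adjusted p = 0.30). Once mitochondrially encoded genes and genes of ribosomal proteins were taken out and each library rescaled to 1000000, both turned to above the level, at log2 differences of 0.67 for SLA-DMA and 0.76 for SLA-DMB.

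A row that the table names HLA-DRA, after the human class II alpha chain, was added after its values were seen. It had 2.84 FPKM in S1, 1.62 FPKM in S2 and 1.19 FPKM in S3, so it was highest in S1, as CD74 was. A row named HLA-DOB, after the beta chain of the inhibitor, was added in the same way and had 0.671 FPKM in S1, 0.624 FPKM in S2 and 0.814 FPKM in S3. It was highest in S3, as SLA-DMA and SLA-DOA were, while SLA-DQB1 and SLA-DMB were highest in S1. The class II rows thus did not share 1 direction between libraries. CD74 had 6.90 times the level of HLA-DRA in S1, 9.89 times in S2 and 13.0 times in S3, and 29.2, 25.6 and 19.0 times that of HLA-DOB. It had 13.1, 12.9 and 12.4 times the level of SLA-DQB1 in the same libraries. The ratio to SLA-DMA was 30.2 in S1, 26.3 in S2 and 16.7 in S3, and that to SLA-DMB 22.2, 18.4 and 25.1. SLA-DOA had the lowest level of these rows, with CD74 at 109, 100.01 and 71.5 times its level. The ratio to SLA-DQB1 differed least between libraries, and those to the other 5 rows differed more. Class II genes are close relatives of each other, and how reads shared between them were counted is not given in the sources used here, so these levels are uncertain.

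Of 13 listed class I heavy chains and relatives 2 were measured, and the classical heavy chains were not analysed here. MR1, which presents microbial metabolites, was at 0.198 ± 0.024 FPKM (SD, n = 3) and lay below the level. FCGRT, the heavy chain of the neonatal Fc receptor, had a mean of 1.08 ± 0.247 FPKM that did not differ detectably from 1 FPKM (limma, adjusted p = 0.552) as deposited. It had a call above 1 FPKM, by 1.09 on the log2 scale, once the mitochondrial and ribosomal protein genes were taken out. Both are partners of B2M, and both had their lowest value in S3, as B2M did.

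Genes of the surrounding machinery were measured at higher levels. Over the 6 lists of other genes of the pathway, the table held 55 of 80 genes, and 47 of these lay above 1 FPKM, 5 below it and 3 had no call (limma with Benjamini-Hochberg adjustment over 17949 genes). Without S1 or without S2, 3 lay below. Among all genes 65.6% lay above and 28.5% below, in counts 11771 and 5111. Once the mitochondrial and ribosomal protein genes were taken out and the others rescaled, these counts were 13667 and 2924, and those of the pathway genes 53 and 2. The median level of the 55 genes was 3.52 on the log2(FPKM + 1) scale, against 2.30 for all genes, and 2.55 for the 7 undisputed genes.

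For peptide supply and loading to class I, 14 of 16 measured genes lay above 1 FPKM, as did 65.6% of all genes. The highest were chaperones that serve the whole endoplasmic reticulum: PDIA3 at 659 ± 30.9 FPKM, HSPA5 at 295 ± 35.2 and calreticulin, CALR, at 264 ± 11.001 (SD, n = 3). The lowest was ERAP2, a peptide-trimming peptidase, at 0.513 ± 0.0246 FPKM, which lay below the level but turned to above it, at 0.36, under that removal. PSMB8, an immunoproteasome subunit, had 0.942 FPKM in S1, 0.942 FPKM in S2 and 0.742 FPKM in S3, with no call against 1 FPKM (limma, adjusted p = 0.146) as deposited and a call above it, at 0.87, under the removal. The other catalytic immunoproteasome subunits were higher, PSMB9 at 4.81 ± 0.552 and PSMB10 at 8.17 ± 0.643 FPKM. PSMB8 was the lowest of the 3 in every library.

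All 14 listed genes of the endosomal proteases, the reductase and the sorting adaptors lay above 1 FPKM, as did 65.6% of all genes. The highest were AP2M1, a clathrin adaptor subunit, at 120 ± 4.19 FPKM, CTSV, a cathepsin L-like protease, at 74.0 ± 5.64, and LGMN, an asparaginyl protease, at 60.5 ± 6.24 (SD, n = 3). CTSL was the lowest at 1.41 ± 0.0198 FPKM, and CST3, a secreted inhibitor of cathepsins, the next at 1.97 ± 0.749. The call for CST3 was lost without S1 or S2 (limma, adjusted p = 0.0921 and 0.112). SPPL2A, the membrane protease that in mouse removes the last CD74 fragment, had 16.7 FPKM in S1, 16.9 FPKM in S2 and 15.7 FPKM in S3, close to CD74 in S3.

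Genes for the proteins that hold CIITA or NLRC5 at MHC promoters had far higher levels than CIITA itself. All 15 measured genes of the promoter complex and of interferon signalling lay above 1 FPKM, as did 65.6% of all genes. Among the 15 were the RFX subunits RFX5 at 12.9 ± 0.581 and RFXANK at 14.2 ± 1.33 FPKM, and the NF-Y subunit NFYC at 36.3 ± 2.92 (SD, n = 3). Of the interferon signalling genes JAK1, a receptor kinase, stood at 145 ± 6.24 FPKM (SD, n = 3). IFNGR1, the ligand-binding chain of the interferon-gamma receptor, was the lowest of the list at 2.79 ± 0.235 FPKM. IRF8, an interferon-regulated transcription factor of myeloid cells, was the next at 4.10 ± 0.868.

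CD74 also acts at the cell surface as the receptor for MIF. MIF was at 10.5 ± 1.19 FPKM and MET, a kinase found in CD74 complexes, at 10.8 ± 0.521 (SD, n = 3), and both lay above 1 FPKM. CD44, the signalling partner of CD74, had 54.8 FPKM in S1, 47.9 FPKM in S2 and 19.9 FPKM in S3. It lay above 1 FPKM in every library and was far lower in S3. CXCR4, another partner, had a mean of 0.910 ± 0.133 FPKM, with no call against the level (limma, adjusted p = 0.289) as deposited and a call above it, at 0.91, once the mitochondrial and ribosomal protein genes were taken out.

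**Figure D2:**
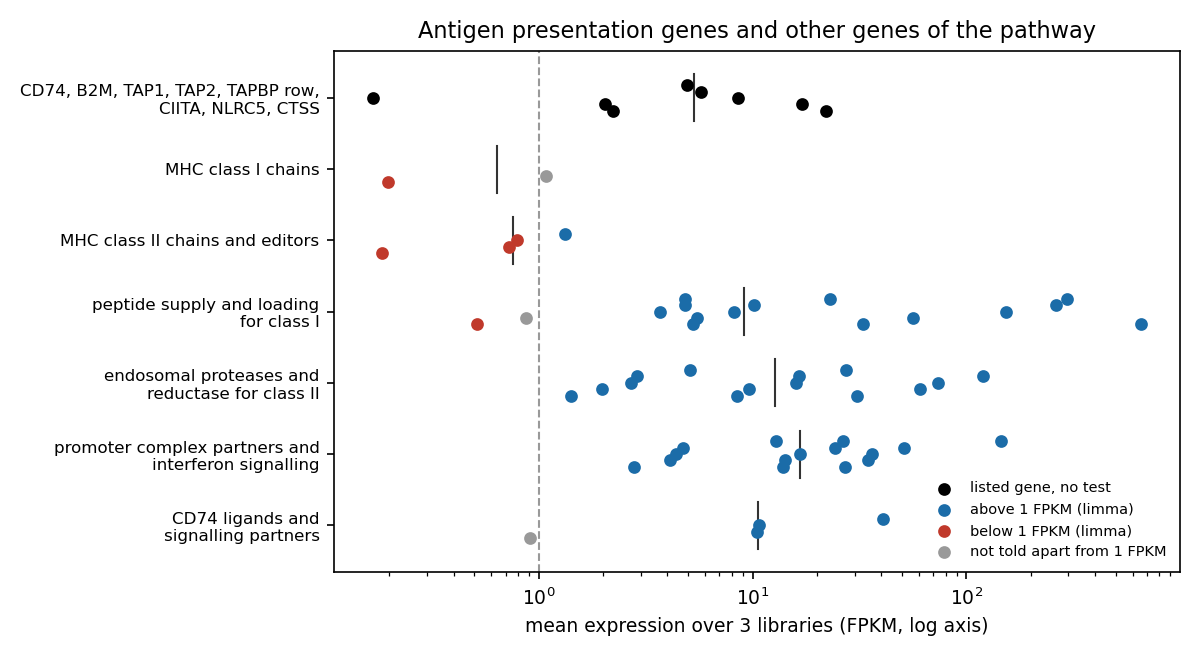
Mean FPKM over 3 libraries on a log axis for the 8 genes (black, no test) and for the measured genes of 6 lists of the pathway, coloured by the limma call against 1 FPKM (dashed line); vertical bars are medians. The plotted class II chains and editors lie at or under 1.33 FPKM. The rows named HLA-DRA, at a mean of 1.88 FPKM, and HLA-DOB, at 0.703 FPKM, are not plotted. All 14 endosomal genes and all 15 promoter and interferon genes lie above 1 FPKM, as do 65.6% of all genes.

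Between libraries the 8 genes moved in different directions. With S3 set against the mean of S1 and S2 on the log2(FPKM + 1) scale, CTSS was higher by 0.60, TAP2 by 0.48 and NLRC5 by 0.38. In the same comparison B2M was lower, at -0.53, TAP1 at -0.25 and CD74 at -0.18. For CD74 the difference of S1 from S2 was larger, at 0.28. CIITA differed by -0.03, a difference that this scale compresses at such a low level. Over the 12340 genes that averaged 1 FPKM or more the median difference was 0.05. The value of CTSS was higher than that of 98.8% of these genes and that of TAP2 than 97.2%, whereas 3.5% of them had a lower value than B2M. Of the 6 undisputed genes that averaged 1 FPKM or more, 3 were higher in S3 than in both other libraries and 3 were lower. The same held for 50.0% and 33.1% of the 12340 genes. These are comparisons of 1 library with the other 2, so there is no replicate check and no test.

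None of the 8 genes changed the sign of this difference as deposited or under the alternatives of scale, filter and pseudocount in which it was measured. After each library was rescaled to 1000000 the difference of CD74 shrank to -0.06, but the median of the 12340 genes that averaged 1 FPKM or more then stood at 0.17. Relative to that median the difference of CD74 lay between -0.25 and -0.23 in the 6 settings that keep all 3 libraries. Fits with a library left out are not part of this range. The coefficient of variation between libraries was 28.2% for CTSS, 24.4% for TAP2, 23.5% for NLRC5 and 20.6% for B2M, each higher than that of at least 88.1% of those 12340 genes. That of CD74 was 13.2% and that of TAP1 14.4%.

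**Figure D3:**
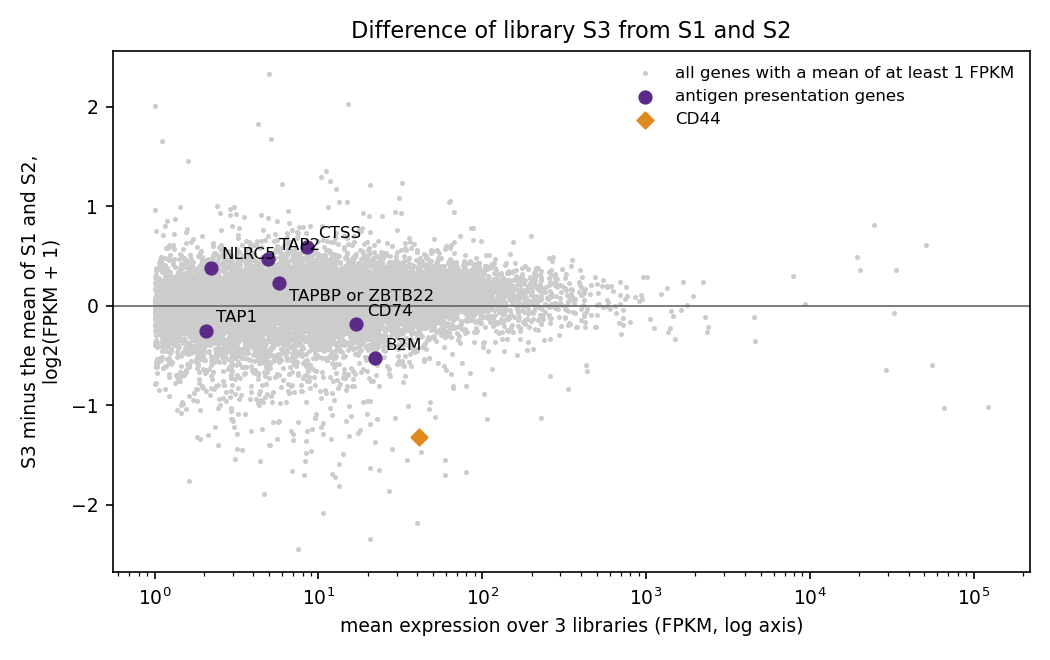
Difference of library S3 from the mean of S1 and S2 in log2(FPKM + 1), against the mean FPKM on a log axis, for the 12340 genes that averaged 1 FPKM or more (grey). CTSS, TAP2 and NLRC5 lie above 0, B2M, TAP1 and CD74 below it, and CD44 at -1.32.

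Among genes of interferon signalling and response, MX1 and IRF1 were lower in S3 and JAK2 was higher. Of the 15 measured genes of the promoter complex and of interferon signalling, 9 were higher in S3 than the mean of S1 and S2 and 6 lower. The same held for 54.6% and 45.4% of all genes. MX1, an interferon-induced GTPase chosen after its values were seen, had 11.12 FPKM in S3, against 55.7 in S1 and 52.9 in S2. IRF1, an activator of class I genes, had 10.9 FPKM in S3, against 16.0 in S1 and 14.8 in S2. JAK2, a kinase of the interferon-gamma receptor, had 27.5 FPKM in S3, against 23.2 in S1 and 22.6 in S2, so it was higher in S3, as NLRC5 and TAP2 were.

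CD74 is used as a marker of antigen-presenting leukocytes. Since a comparison of leukocyte markers with 1 FPKM was what selected CD74, the levels of these markers are a description with no test, and nothing is read from the place of CD74 among them. Of 37 listed leukocyte markers 35 were measured, of which 11 averaged 1 FPKM or more as deposited and 24 less. Among all genes 68.8% averaged 1 FPKM or more. The highest were LCP1, an actin-bundling protein, at 26.6 ± 2.67 FPKM, MRC1, the macrophage mannose receptor, at 3.87 ± 0.513, and ARHGDIB at 3.81 ± 1.19 (SD, n = 3). Next came ITGAM at 3.78 ± 0.579, CD86 at 2.69 ± 0.20, LYZ at 1.502 ± 0.518 and CD80 at 1.43 ± 0.119 FPKM, so on this list CD74 was not alone above the level. Nearest to 1 FPKM were FCER1G at 1.002 FPKM, CD79A at 1.09 and FLT3 at 1.14 just inside, and CD163 at 0.967, TYROBP at 0.960 and LAPTM5 at 0.926 just outside.

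Markers of each class of leukocyte spread over a wide range. Of the 8 measured markers of leukocytes as a whole 3 averaged 1 FPKM or more, LCP1, ARHGDIB and CORO1A, and 5 less. PTPRC, the phosphatase CD45, was among these 5, with 0.840 FPKM in S1, 0.609 FPKM in S2 and 0.813 FPKM in S3. Of the 17 markers of macrophages and dendritic cells 7 averaged 1 FPKM or more and 10 less. CSF1R, the macrophage growth factor receptor, was at 0.227 ± 0.0271 FPKM (SD, n = 3). CD68, a macrophage lysosomal protein, stood at 1.299 FPKM in S1, 1.2002 FPKM in S2 and 0.219 FPKM in S3, so it was far lower in S3. B and T cell markers reached at most CD79A at 1.09 ± 0.0904 FPKM, and the other 9 of 10 averaged less than 1 FPKM. The place of these markers against 1 FPKM depends on the scale. With mitochondrial and ribosomal protein genes taken out, PTPRC, CD68 and CD79A lay 0.72, 0.76 and 1.11 above it in log2. CSF1R stayed below, at -0.24.

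Summed over the 35 markers, the level was 54.2 FPKM in S1, 53.9 FPKM in S2 and 62.8 FPKM in S3, and without LCP1 it was 28.9, 29.0 and 33.1. None of the 35 was at 0 in any library. The summed level was highest in S3, where CTSS was highest and CD74 lowest, though CD74 was close to its level in S2. Marker by marker, 21 of the 35 were higher in S3 than the mean of S1 and S2, as were 54.6% of all genes, and the median difference on the log2(FPKM + 1) scale was 0.02, against 0.02 for all genes. In bulk samples fewer cells of a type and less RNA per cell cannot be told apart. The part of leukocytes in the level of CD74 was not tested.

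**Figure D4:**
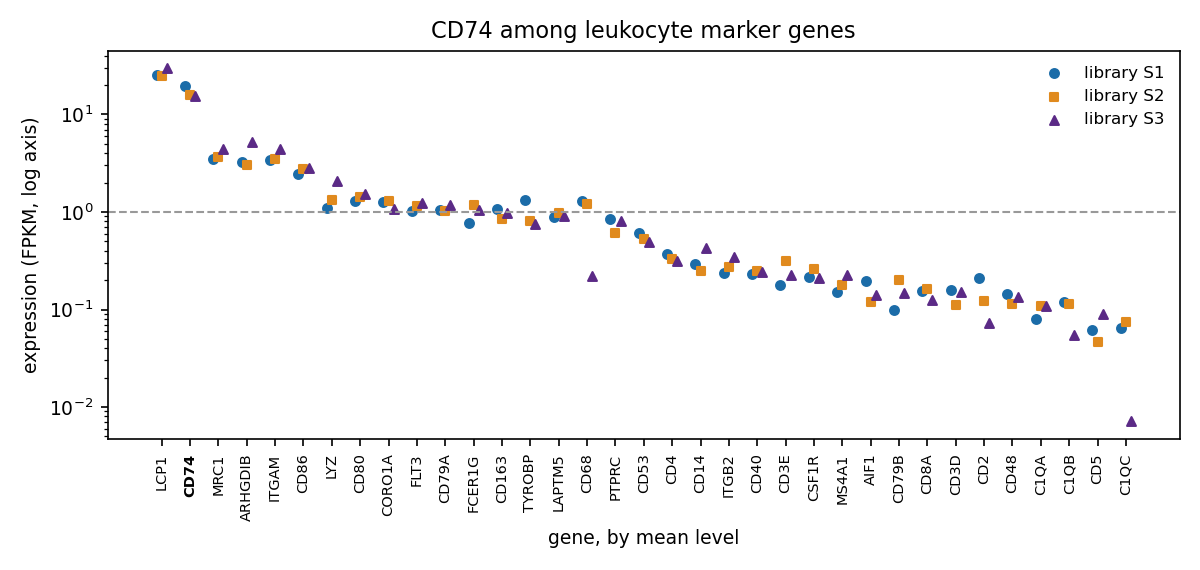
FPKM on a log axis of CD74 (bold) and leukocyte markers, ordered by mean, with a point for each library and a dashed line at 1 FPKM. The plot is a description, since CD74 was selected on this comparison; LCP1 lies at 26.6 FPKM, CD74 at 17.0 FPKM and MRC1 at 3.87 FPKM.

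Summed markers of the Sertoli, peritubular, endothelial and Leydig lists were lowest in S3, but single genes weighed heavily on some sums. In the Sertoli list 10 of 10 measured markers were lower in S3 than the mean of S1 and S2, with a median of -0.43 on the log2(FPKM + 1) scale, against 45.4% of all genes lower and a median of 0.02 over all genes. Not all were lowest in S3, since WT1, at 45.6, 40.9 and 41.9 FPKM, was lowest in S2. So were the low markers KRT18, at 0.243, 0.109 and 0.137 FPKM, and DHH, at 0.044, 0.005 and 0.012 FPKM. The highest of the list were CLU at 228 ± 100.1 FPKM and VIM at 102 ± 32.9 (SD, n = 3). Of 9 peritubular and fibroblast markers, led by DCN and TAGLN, 7 were lower in S3, with a median difference of -0.10. Their summed levels were 115, 88.3 and 76.5 FPKM in S1, S2 and S3. Much of that fall was TAGLN, at 37.2, 24.4 and 8.87 FPKM, whereas DCN had 34.8, 28.5 and 31.0 FPKM and was lowest in S2. Of 8 endothelial markers, led by ERG and KDR, 7 were lower, with summed levels of 24.1, 22.6 and 18.5 FPKM and a median of -0.23. KDR, at 4.22, 5.17 and 4.72 FPKM, was the 1 not lower. Of 6 Leydig cell markers 5 were lower, with summed levels of 17.8, 14.7 and 7.57 FPKM and a median of -0.07. Most of that fall was CYP11A1, the highest of the list, at 12.0, 9.75 and 2.64 FPKM. NR5A1, the next, was higher in S3, at 2.38, 2.28 and 2.92 FPKM. In the Leydig list LHCGR was at 0 in S1 and S3 and counted as lower only through its 0.097 FPKM in S2. In the other 3 lists no marker was at 0. B2M, TAP1, CD74 and CD44 were lowest in S3 as well, though CD74 had 16.0 FPKM in S2 and 15.5 FPKM in S3, with S1 above both at 19.6 FPKM. Germ cell markers had summed levels of 462 FPKM in S1, 458 FPKM in S2 and 558 FPKM in S3. This sum was highest in S3, as CTSS, TAP2 and NLRC5 were. Of the 11 markers 9 were higher in S3 than the mean of S1 and S2, as were 54.6% of all genes. NANOS3 alone had 50.0, 43.7 and 98.1 FPKM, while DDX4 and PIWIL4 were highest in S2 and UCHL1 in S1. The part of these cells in the differences between libraries was not tested.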

How the data were processed

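RNA depleted of ribosomal RNA was read as 150 bp pairs. Per the labels' protocols, the authors trimmed reads with cutadapt 1.9.3, aligned them with HISAT2 2.0.4 and deposited gene-level FPKM from Cuffdiff. The table's name says TPM. The genome is susScr3 in the protocols, while the submitters' processing notes add Sscrofa11.1, and coordinates were therefore left out. The columns S1 to S3 could not be tied to single samples and are used as libraries of 1 group.

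Values under 1e-06 were set to 0. No more than 2 of 1105 low genes had an equal S1 to S2 ratio at 4 decimals; whole reads were thus not recovered and no counting interval is given. Names came from the table or, for 737 unnamed rows, from Ensembl names; 334 rows with 2 different names joined no list. limma 3.58.1 (R 4.3.3) set the mean of log2(FPKM + 1), pseudocount 1, against 1 FPKM, with an intercept and a variance trend; p-values were two-sided, adjusted over 17949 genes by Benjamini-Hochberg, and called at 0.05. The added 1 makes differences of low genes too small. In simulated data for pathway genes against 1 FPKM (17949 genes), it called 84.0% of 200 genes at 1.5 times the level, 98.0% at 2 times, 89.0% at 0.5 times and 5.30% of 2000 on the level.

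Members and lists were chosen with earlier results of these data known. Named were all members, the 3 highest and 2 lowest genes of each pathway list, every measured MHC chain and CD74 partner, the 2 highest of each marker list and the 3 genes nearest to CD74. Some genes that this rule names are not reported here. Other named genes (RFX5, RFXANK, PSMB9, PSMB10, SPPL2A, IRF1, JAK2, IFNGR2, MX1, HLA-DRA, HLA-DOB, and markers beyond the 2 highest) were chosen after their values were seen. Alternatives were a pseudocount of 0.1, a mean of at least 0.5 FPKM, each library left out, removal of 13 mitochondrial and 62 ribosomal protein genes with rescaling, rescaling to 1000000, and quantile normalization.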

Additional observations from a re-analysis of the deposited data

How the results depend on the processing

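The 47 pathway genes above 1 FPKM stayed between 45 and 53 in every alternative. The 5 below numbered 2 when genes averaging under 0.5 FPKM were left out, so that fewer low genes were tested, 2 when mitochondrial and ribosomal protein genes were removed, 3 after rescaling to 1000000, and 3 to 4 with a library left out. All genes below the level numbered 5111, against 798 under the filter and 2924 after that removal, which scales the rest upwards. It moved the median level of genes of at least 1 FPKM by 1.51 and turned SLA-DMB to 0.76, SLA-DMA to 0.67, PSMB8 to 0.87, ERAP2 to 0.36 and CXCR4 to 0.91 above the level. The median level of the 7 undisputed genes was 1.55 above the level. It was 2.17 with a pseudocount of 0.1, 1.89 under the filter, which drops CIITA, 2.99 after removal of the mitochondrial and ribosomal protein genes, 0.67 over the 5 genes named in the table alone, and 1.40 to 1.67 with a library left out. Their median difference of S3 was -0.03, against -0.12 with a pseudocount of 0.1, -0.090 after that removal, 0.10 under the filter and 0.10 with the row of 2 names added. The sets of genes, the row of 2 names and the rows named HLA-DRA and HLA-DOB, which made the counts 48 above and 6 below, were chosen after seeing the data. No paired analysis was possible because all 3 libraries belong to 1 group. Depth is unknown, so its limit on low values such as CIITA was not tested.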
